A study of Mus musculus with 2 samples.

Results

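Plasma cells are the end stage of the B cell lineage, and they were studied here among single cells of mouse bone marrow. Cells were chosen by their counts of unique transcript molecules (UMIs): at least 10 of Jchain, 3 of Mzb1 and 3 of Xbp1, and none of Siglech, a plasmacytoid dendritic cell gene. They also had to hold 200 genes or more, with mitochondrial UMIs making up 25% or less. This gave 255 plasma cells among 29952 cells that passed the filter, of 34099 cells in all. The marrow came from male wild type C57B/6 mice, and the study compared the blood-forming cells of mice on a high fat diet with those on chow. The HFD library came from mice on a 60% high fat diet for 16 weeks and the ND library from mice on chow over the same period; the labels call the mice young. Each diet is 1 library on the BD Rhapsody system, and how many mice a library holds, or whether mice were pooled, is not labelled. Differences between the libraries therefore have no replicate check, no test was possible, and the intervals given are exact 95% intervals that cover counting error only.

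Plasma cells secrete antibody at a very high rate. They carry a large endoplasmic reticulum (ER), kept up by the transcription factor Xbp1, which turns on chaperones, the translocation channel and the machinery that discards misfolded proteins. In the marrow they live for long periods on signals such as APRIL, read by the receptor BCMA (gene Tnfrsf17). J chain, encoded by Jchain, links IgM and IgA subunits into the polymers that these classes form.

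The HFD library held 126 plasma cells among 15650 cells, or 0.805% (0.671 to 0.958). The ND library held 129 among 14302 cells, or 0.902% (0.754 to 1.07). The ratio of the shares, HFD over ND, was 0.893 with an interval of 0.693 to 1.15, which includes equal shares. In single-library data a smaller share of plasma cells and a larger number of other cells cannot be told apart.

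Among cells that met the other criteria, the lowest Jchain count inside the threshold was 16 UMIs in the HFD library and 93 in the ND library, while 13 HFD and 5 ND cells fell outside it with at most 1 and 2 UMIs. For Mzb1, 5 HFD and 9 ND cells fell outside with at most 2 UMIs, next to a lowest count of 3 inside. For Xbp1, 3 HFD and 1 ND cells fell outside with at most 2 UMIs, next to a lowest count of 3 inside. Siglech left out 2 HFD and 3 ND cells with up to 24 and 14 UMIs of it. These genes chose the cells, so their levels describe the choice. The median plasma cell held 620.5 Jchain UMIs in the HFD library and 606 in the ND library, whereas a Jchain UMI was found in 2.76% of HFD and 2.74% of ND neutrophils, cells that should lack the gene.

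Some plasma cells also carried transcripts of other cell types. At least 20 UMIs of neutrophil, erythroid, monocyte and macrophage, or basophil and eosinophil markers (Prg2 left out), or at least 5 of T and NK cell markers, were present in 12 of 126 HFD and 24 of 129 ND plasma cells. Neutrophil markers summed to 2032 UMIs in HFD plasma cells and 9340 in ND plasma cells, with 4 HFD and 11 ND cells at or over the limit, a median of 2 UMIs per HFD and 1 per ND cell and a highest cell of 1124 and 2269. Erythroid markers summed to 360 and 1135 UMIs in HFD and ND plasma cells, monocyte and macrophage markers to 468 and 1066, basophil and eosinophil markers without Prg2 to 155 and 842, and T and NK cell markers to 53 and 116, each with a median of 0 per cell in both libraries. Prg2, an eosinophil granule protein gene, was found in 92.9% of HFD and 97.7% of ND plasma cells. Its medians were 8 UMIs per HFD and 9 per ND plasma cell, with sums of 1678 and 3302. A Prg2 UMI was present in 10.6% of HFD and 7.14% of ND mature B cells, and in 9.63% and 7.37% of T cells. Without the plasma cells over the limits above, 1489 HFD and 1342 ND UMIs of Prg2 were left. Whether plasma cells express Prg2 themselves was not tested. Scrublet, a doublet caller, marked 436 of 15650 HFD cells and 412 of 14302 ND cells, none of them a plasma cell. The 2 libraries shared 263 cell barcodes among cells that passed the filter, and none among plasma cells. The median plasma cell had 11434.5 RNA UMIs and 2157.5 genes in the HFD library, against 11622 RNA UMIs and 2297 genes in the ND library.

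Genes that define plasma cells but took no part in the choice were high. All 14 such markers counted were at least 2-fold higher in plasma cells than in all other cells in both libraries, beside 14.5% of the 4895 genes counted, those with at least 50 UMIs over the plasma cells of both libraries. The median of these 14 markers, taking for each gene the smaller of its 2 log2 folds, was 5.45. Levels here and below are UMIs per 1000000 UMIs outside immunoglobulin and Jchain genes (CPM). Sdc1, the surface proteoglycan CD138, was at 381 CPM in HFD and 390 CPM in ND plasma cells, against 4.34 and 4.35 CPM in the other cells of the HFD and ND libraries. Tnfrsf17 was at 339 and 305 CPM in HFD and ND plasma cells, against 0.114 and 0.282 CPM in the other cells. At least 1 UMI of Tnfrsf17 was found in 76.2% of HFD and 69.0% of ND plasma cells but in 0.0321% of HFD and 0.0946% of ND neutrophils, whose median cell held 4035 and 4475 UMIs. Prdm1, the repressor Blimp-1 that drives the plasma cell fate, was 6.38 and 6.67 higher on the log2 scale than in other cells of the HFD and ND libraries.

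Of the 16 plasma cell transcription factors counted, 13 were at least 2-fold higher than in other cells in both libraries and none lower. Irf4, which cooperates with Prdm1, was 5.28 higher on the log2 scale in the HFD library and 5.22 in the ND library. Bhlhe41 was 6.18 and 6.51 higher, and Pou2af1, a B cell coactivator, 5.12 and 5.23 higher. Pax5, Bcl6 and Ciita, factors of the B cell state, were scarce, each too low to be counted. Pax5 had 7.77 CPM in HFD and 20.5 CPM in ND plasma cells, against 888 and 902 CPM in mature B cells. Bcl6 had 6.47 and 1.20 CPM, against 83.6 and 83.5 CPM. Ciita, the master regulator of MHC class II, had 1.29 and 1.20 CPM, against 283 and 268 CPM. Other B cell genes were kept. Of the 9 counted genes of the B cell identity list, 5 were at least 2-fold higher than in all other cells in both libraries and 1 lower. Over all genes counted the shares were 14.5% and 6.86%. Cd79a, a signalling part of the B cell receptor, was at 1838 CPM in HFD and 1503 CPM in ND plasma cells, against 185 and 132 CPM in all other cells and 4403 and 3604 CPM in mature B cells. Among survival genes, 10 of 16 were at least 2-fold higher and none lower, among them Tnfrsf13b (the receptor TACI), at 461 and 403 CPM in HFD and ND plasma cells, and Cd28, a costimulatory receptor, at 106 and 143 CPM. Among the genes with the largest folds over other cells were also Chst1, a sulphotransferase (9.55 and 8.66 on the log2 scale), Cacna1h, a calcium channel subunit (9.08 and 8.42), and Slamf7, a surface receptor (5.41 and 5.54).

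Most counted genes of the lists of the secretory machinery were at least 2-fold higher in plasma cells. In the ER folding list 23 of 28 genes were at least 2-fold higher in plasma cells in both libraries, with a median smaller fold of 2.39 on the log2 scale. In the ER-associated degradation list the count was 14 of 19, with a median of 1.68. In the list of translocation and signal peptide genes it was 15 of 24, in glycosylation 13 of 22 and in ER to Golgi transport 18 of 28. Of all 4895 genes counted, 14.5% were at least 2-fold higher in both libraries, and the median over all of them was 0. Txndc5, a disulphide isomerase, was 6.18 and 6.16 higher in the HFD and ND libraries. Derl3, a channel component that passes misfolded proteins out of the ER, was 8.99 and 8.89 higher, and Creld2, an ER stress protein, 4.36 and 4.11 higher. Canx, the lectin chaperone calnexin, stood at 617 CPM in HFD and 590 CPM in ND plasma cells, against 578 and 605 CPM in other cells, so its level did not set plasma cells apart.

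Some of these genes share a sequence in their promoters. The ER stress element, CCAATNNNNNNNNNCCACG on either strand, is the known site of ATF6 and XBP1. Promoters were taken from RefSeq, build GRCm38.p6, as the 250 bases before to 50 bases after each start. The element was present in 0.119% of 32851 promoters of all genes and in 0.196% of the 5103 promoters of genes counted in plasma cells. It was present in 18.2% of the 55 promoters of ER folding and degradation genes, which belong to 45 of the 52 genes of those lists. A match describes the letters of the window and shows no binding. The 9 counted genes with the element (Calr, Canx, Creld2, Derl3, Dnajc3, Hsp90b1, Hspa5, Pdia6 and Syvn1) had a median log2 fold over other cells of 2.73 in the HFD library and 2.76 in the ND library, and the 32 counted genes without it 2.22 and 1.99. Within the set that carries the element, the HFD values ran from 0.10 in Canx to 8.99 in Derl3. By genes with a promoter, the shorter UPR element core TGACGTG was in 2.22% of all genes and 4.49% of those counted in plasma cells. It was in 6 of the 45 genes (13.3%). The ERSE-II element was in 0.0444% of all genes, in 0.178% of those counted and in 2 of the 45, Herpud1 and Dnajb11. The 250 bases before the start of Derl3 (chr10:75893148-75893397, plus strand), Creld2 (chr15:88819396-88819645, plus strand) and Hspa5, the chaperone BiP (chr2:34771840-34772089, plus strand), are printed to show the elements, in capitals. In Derl3 and Creld2 the element lies on the opposite strand, with its first printed base 156 and 126 bases before the start, and Hspa5 carries the ER stress element from base -65 as well as the UPR core upstream of it. The elements were looked for on both strands and do not overlap in the letters shown.
Derl3: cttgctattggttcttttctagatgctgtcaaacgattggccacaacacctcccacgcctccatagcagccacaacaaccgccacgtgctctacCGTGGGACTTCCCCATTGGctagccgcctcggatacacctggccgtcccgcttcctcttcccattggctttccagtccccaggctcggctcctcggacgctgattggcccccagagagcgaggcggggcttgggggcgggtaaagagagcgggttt
Creld2: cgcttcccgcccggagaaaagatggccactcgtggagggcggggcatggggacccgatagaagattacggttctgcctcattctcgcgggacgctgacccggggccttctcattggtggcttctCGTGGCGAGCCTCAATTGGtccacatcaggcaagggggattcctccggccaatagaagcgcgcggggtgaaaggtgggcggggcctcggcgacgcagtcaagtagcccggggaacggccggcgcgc
Hspa5: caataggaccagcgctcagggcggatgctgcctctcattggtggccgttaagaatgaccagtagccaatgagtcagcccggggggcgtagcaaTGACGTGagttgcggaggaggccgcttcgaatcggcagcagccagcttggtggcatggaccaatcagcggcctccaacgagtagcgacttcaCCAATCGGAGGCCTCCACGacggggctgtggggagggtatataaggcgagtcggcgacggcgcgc

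Antibody transcripts filled a large part of each cell. Immunoglobulin genes held 42.1% of all RNA UMIs of HFD plasma cells and 40.1% of those of ND plasma cells. Per cell, the HFD share ran from 10.6% to 68.0% with a median of 45.3%, while mature B cells of that library had a median of 2.22%. The kappa constant gene Igkc alone held 28.5% of the UMIs in HFD and 26.2% in ND plasma cells. Jchain held 5.43% in HFD and 5.41% in ND plasma cells.

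IgM was the main class in both libraries. Each cell was assigned to the heavy chain constant gene with at least 70% of its heavy chain constant UMIs, and all 255 cells could be assigned, since the leading gene held at least 87.2% of them in every HFD cell and 89.7% in every ND cell, with a median of 100% in both. IgM cells numbered 85 of 126 in the HFD library (67.5%, 58.5 to 75.5) and 88 of 129 in the ND library (68.2%, 59.4 to 76.1). IgA cells numbered 35 (27.8%, 20.2 to 36.5) and 33 (25.6%, 18.3 to 34.0) in the HFD and ND libraries. The shares of both classes lay within each other's intervals. Only 6 HFD cells (4.76%) and 8 ND cells (6.20%) made IgG. By subclass these were 2 IgG2b, 1 IgG2c and 3 IgG3 cells in the HFD library, against 5 IgG2b, 3 IgG2c and 0 IgG3 cells in the ND library. No cell was led by the IgG1, IgD or IgE gene, which allows a share of up to 2.38% in the HFD and 2.33% in the ND library, taken as 3 cells of the total (the exact 95% upper limits are 2.89% and 2.82%). Kappa light chains were used by 123 HFD cells (97.6%) and 121 ND cells (93.8%), and lambda by 3 and 7.

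**Figure D1:**
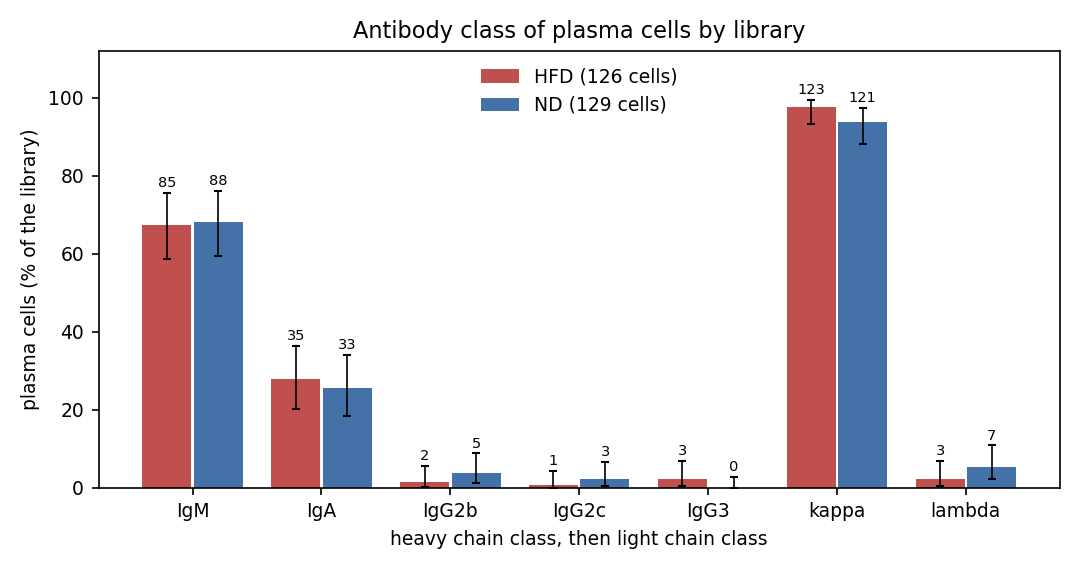
Bars give the share of plasma cells in each heavy chain class and light chain class in the HFD library (126 cells, red, left of each pair) and the ND library (129 cells, blue, right), with exact 95% intervals for counting error and the number of cells above each bar. IgM led in both libraries at 67.5% of HFD and 68.2% of ND plasma cells, and the intervals of the libraries overlap in every class.

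Jchain helped to choose the cells, so its level by class is a description. In the HFD library the median IgA cell had 952 Jchain UMIs (94 to 1524) and the median IgM cell 499 (53 to 1409). In the ND library the medians were 878 (293 to 1344) in IgA and 496 (93 to 1155) in IgM cells. Per 10000 RNA UMIs the medians were 744 in IgA and 545 in IgM cells of the HFD library, and 650 and 550 in those of the ND library. The ranges of the classes overlap widely. Immunoglobulin genes held a median of 52.6% of the UMIs of HFD IgA cells against 42.5% in HFD IgM cells, and 45.9% against 41.7% in ND cells. UMIs outside these genes were close, with medians of 5394 in IgA and 5240 in IgM cells of the HFD library and 5935 and 5566.5 in those of the ND library. The lowest Jchain count, 16 UMIs, was in an HFD IgG3 cell, which was also the cell with the most RNA UMIs, 38837.

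**Figure D2:**
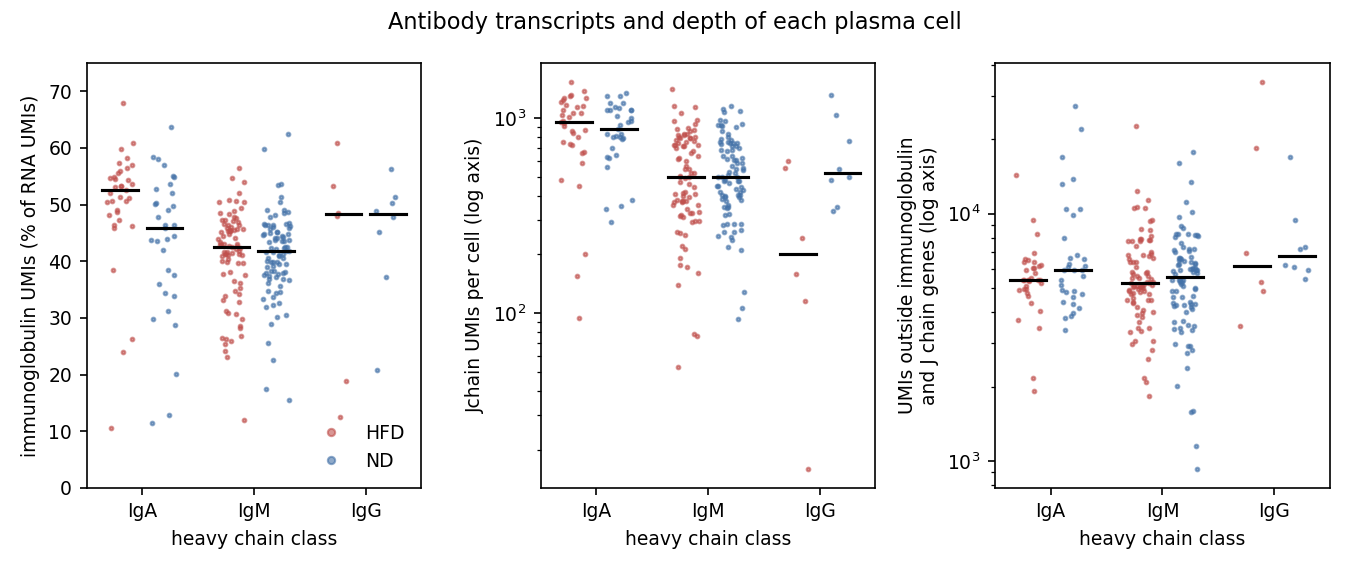
Each point is a plasma cell, by heavy chain class, with HFD cells in red to the left and ND cells in blue to the right, and black bars at the medians. The left panel gives the share of immunoglobulin UMIs, the middle panel Jchain UMIs on a log axis and the right panel UMIs outside these genes on a log axis. The Jchain medians of IgA cells (952 HFD, 878 ND) lie above those of IgM cells (499 HFD, 496 ND), while the medians in the right panel are close.

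The variable genes were called from the same transcripts. A heavy and a light chain gene, each leading its kind with at least 50% of at least 3 UMIs, could be named for 113 HFD and 119 ND cells. Ighv1-26 led in 7 HFD and 18 ND cells, Ighv11-2 in 12 and 8, Ighv1-9 in 10 and 8, Ighv8-8 in 5 and 12 and Ighv1-64 in 9 and 4. The 113 HFD cells used 85 different pairs and the 119 ND cells 83, and 12 pairs occurred in both libraries. Of IgM cells with a pair, 30 of 73 in the HFD library and 50 of 81 in the ND library shared their pair with another plasma cell of that class. Of IgA cells, 9 of 34 in the HFD and 2 of 30 in the ND library did so. Equal variable genes do not show a common clone, since the junctions were not read here, and near-identical variable genes could share reads.

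**Figure D3:**
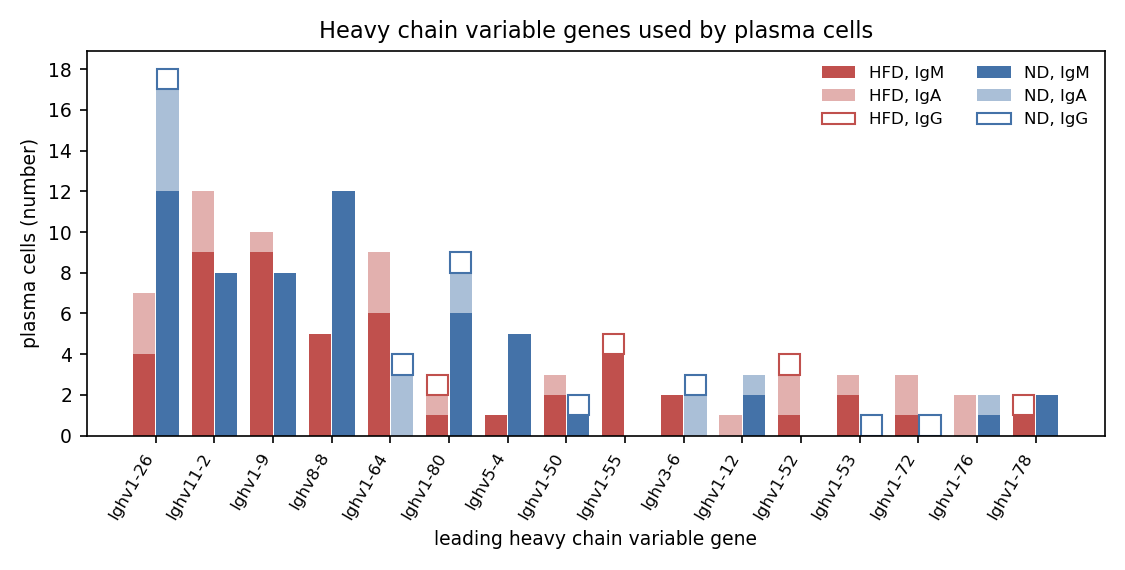
Bars give the number of plasma cells led by each of the 16 most frequent heavy chain variable genes, HFD in red on the left and ND in blue on the right of each pair, split into IgM (full colour), IgA (pale) and IgG (open). Ighv1-26 led in 7 HFD and 18 ND cells, and all cells led by Ighv8-8 were IgM in both libraries.

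The most frequent pair was the same in both libraries and was an IgM pair. Ighv11-2 with Igkv14-126 was found in 8 HFD and 8 ND cells, all of them IgM, and no cell that was led by Igkv14-126 had another heavy chain gene. In mice this pair is known from B-1a cells, where it encodes antibodies to phosphatidylcholine that are made without immunisation. A different pair with the same heavy chain gene, Ighv11-2 with Igkv19-93, was found in 3 HFD cells, all IgA, and in 0 ND cells. The next pairs were Ighv1-26 with Igkv12-46 (2 HFD and 5 ND cells), Ighv1-9 with Igkv19-93 (2 and 5) and Ighv8-8 with Igkv4-68 (2 and 4), all IgM. Because the pair recurs, its germline segments are printed as read from the GENCODE M21 transcripts, build GRCm38: the 300 bases at the 3′ end of Ighv11-2 (chr12:114048241-114048540, minus strand) and the 298 bases at the 3′ end of Igkv14-126 (chr6:67896345-67896642, plus strand). Capitals mark the last TGT, the codon of the conserved cysteine, and the bases after it, which is the end that is joined.
Ighv11-2: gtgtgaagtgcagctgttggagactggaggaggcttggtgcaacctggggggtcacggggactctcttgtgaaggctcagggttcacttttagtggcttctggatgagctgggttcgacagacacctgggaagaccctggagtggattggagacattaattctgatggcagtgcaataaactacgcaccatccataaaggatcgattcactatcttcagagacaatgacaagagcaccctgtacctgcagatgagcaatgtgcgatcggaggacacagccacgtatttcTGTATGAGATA
Igkv14-126: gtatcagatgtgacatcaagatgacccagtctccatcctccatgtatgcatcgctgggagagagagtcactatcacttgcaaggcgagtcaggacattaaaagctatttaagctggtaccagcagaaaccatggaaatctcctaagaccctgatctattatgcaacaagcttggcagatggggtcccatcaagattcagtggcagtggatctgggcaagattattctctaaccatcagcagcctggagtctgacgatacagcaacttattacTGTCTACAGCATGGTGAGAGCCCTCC

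The cells with this pair differed from the other IgM cells in the same direction in both libraries for several genes, picked here after their values were seen from the 538 genes with enough UMIs. Ggh, the enzyme gamma-glutamyl hydrolase that trims folates, was at 646 CPM in the 8 HFD pair cells against 135 CPM in the 77 other HFD IgM cells, a log2 difference of 2.26 (1.59 to 2.91). In the ND library it was at 720 CPM in the 8 pair cells against 68.7 CPM in the 80 others, a difference of 3.39 (2.69 to 4.11). A Ggh UMI was present in 6 of 8 HFD and 7 of 8 ND pair cells, against 17 of 77 and 15 of 80 others. Epcam, an adhesion molecule, was 1.89 higher in HFD and 2.78 higher in ND pair cells. Ly6c2, a Ly-6 surface protein, was 1.87 and 1.48 higher, although 1 HFD pair cell held 274 of its 400 UMIs. H2-Ab1, an MHC class II chain, had log2 differences of -1.48 in HFD and -1.95 in ND pair cells. Neutrophil genes were lower by more, among them S100a9 (-5.20 in HFD and -5.79 in ND pair cells) and Retnlg (-4.46 and -3.16). The other IgM cells thus held more transcripts of other cell types. The comparison was not repeated without the cells that carried them. With 8 cells in each library, these values rest on few cells.

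IgA and IgM plasma cells differed in many genes in the same direction in both libraries. Of the 4104 genes with at least 25 UMIs in the plasma cells of each library, 122 (2.97%) were at least 1.5-fold higher in IgA than in IgM cells in both libraries and 250 (6.09%) were at least 1.5-fold lower. Those higher in IgA cells included homing receptors of the gut and other mucosa. Ccr9, the receptor for the small intestinal chemokine CCL25, had 50 UMIs in IgA against 6 in IgM cells of the HFD library and 26 against 1 in the ND library, log2 differences of 4.40 (3.18 to 5.91) and 5.69 (3.09 to 11.05). A Ccr9 UMI was present in 14 of 35 IgA and 4 of 85 IgM cells in the HFD library, and in 14 of 33 IgA and 1 of 88 IgM cells in the ND library. Ccr10, the receptor for the mucosal chemokine CCL28, was at 262 against 39.9 CPM in the HFD library and 269 against 25.5 CPM in the ND library, differences of 2.72 and 3.40. Itgb7, the integrin beta chain that pairs with Itga4 to bind the mucosal addressin, was 2.20 and 1.80 higher in IgA cells, and Itga4 1.46 and 0.34 higher. Thus Ccr9, Ccr10 and Itgb7, or 3 of the 25 counted genes of the adhesion and homing list, were higher and 4 lower in IgA cells in both libraries. The lower ones included Cd9, Cd52 and Cxcr4. Cxcr4, the receptor that holds cells in the marrow, was at 30.3 against 160 CPM in the HFD and 66.4 against 180 CPM in the ND library.

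Other genes higher in IgA cells had varied roles. Runx2, a transcription factor, was 2.96 and 3.43 higher in IgA cells of the HFD and ND libraries. Vpreb3, a B cell protein of the surrogate light chain family, was 3.39 and 2.60 higher, and Atp1b1, a subunit of the sodium pump, 3.13 and 2.43 higher. Bst2, the membrane protein tetherin, was at 252 against 67.8 CPM in the HFD and 148 against 47.1 CPM in the ND library, and Cd79a 0.89 and 0.77 higher. The haemoglobin gene Hbb-bs was 4.66 and 4.21 higher in IgA cells, with 22 of the 33 HFD and 126 of the 165 ND UMIs in 1 cell each. In all, 4 of 35 HFD and 9 of 33 ND IgA cells carried other cells' transcripts over the limits, against 7 of 85 and 13 of 88 IgM cells. Ccr9, Bst2 and Runx2 are also in the list of plasmacytoid dendritic cell markers. Of its 6 counted genes 3 were higher and 1, Cox6a2, lower in IgA cells in both libraries, beside 2.97% and 6.09% of all 4104 genes. The list medians were 1.06 in the HFD and 0.99 in the ND library. That list summed to 1 to 35 UMIs per IgA cell and 0 to 24 per IgM cell in the HFD library, and to 2 to 30 and 0 to 23 in the ND library. Ccr9 stood at 520 CPM in HFD and 604 CPM in ND plasmacytoid dendritic cells, while Klk1 and Cd300c of the list had 0 UMIs in IgA and IgM cells, and Siglech had none by the choice of cells. Without the cells that carried other cells' transcripts the values of Ccr10 were 2.68 and 3.46 and those of Runx2 2.96 and 3.81 in the HFD and ND libraries.

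Genes higher in IgM cells were more numerous and included several of the B cell programme. Of the 8 counted genes of the B cell identity list, 3 were lower and 1 higher in IgA cells in both libraries. Over all 4104 genes the shares were 6.09% lower and 2.97% higher. The B cell genes Cd79a and Vpreb3, given above, went the other way and were higher in IgA cells. Chst1, a sulphotransferase of keratan sulphate, was at 10.1 CPM in IgA against 622 CPM in IgM cells of the HFD library and at 31.2 against 467 CPM in the ND library, differences of -5.95 (-9.00 to -4.08) and -3.90 (-5.13 to -2.90). Its UMIs were found in 2 of 35 IgA and 73 of 85 IgM cells in the HFD library. In the ND library they were found in 2 of 33 IgA and 74 of 88 IgM cells, so Chst1 separated most IgM from most IgA cells. With IgG cells included, 78 HFD and 82 ND plasma cells held a Chst1 UMI, so it was not limited to IgM cells. Fcmr, the receptor for the Fc part of IgM, had 0 UMIs in HFD IgA cells against 76 in IgM cells and 1 UMI in ND IgA cells against 67, a log2 value lower by 3.32 at a floor of 3 UMIs in the HFD library (exact upper limit -2.99) and a difference of -5.07 (-10.40 to -2.55) in the ND library. Spon1, a secreted matrix protein, had 0 UMIs in IgA cells of both libraries against 51 in HFD and 49 in ND IgM cells, which at a floor of 3 UMIs puts it lower by log2 values of 2.75 and 3.04 (exact upper limits -2.40 and -2.68). Wnt10a, a Wnt ligand, had 1 UMI in IgA against 82 in IgM cells of the HFD library (-5.02, -10.34 to -2.50) and 2 against 39 in the ND library (-3.29, -6.39 to -1.34).

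The B cell receptor kinase Blk had log2 differences of IgA over IgM cells of -2.47 and -2.28 in the HFD and ND libraries. Ms4a1, the surface protein CD20, had differences of -5.04 (-10.36 to -2.52, with 1 UMI in IgA cells) and -2.51, and Irf8, a B and myeloid transcription factor, of -2.42 in both. Egr1, an immediate early factor induced by receptor signals, was at 146 CPM in IgA against 674 CPM in IgM cells of the HFD library and at 187 against 1275 CPM in the ND library. In the MHC class II list 2 of 4 counted genes were lower in IgA cells in both libraries and none higher. The shares over all 4104 genes were 6.09% lower and 2.97% higher. The list medians were -0.96 and -0.67, beside -0.04 and -0.05 over all 4104 genes. Cd74, the invariant chain, was at 4199 against 7298 CPM in the HFD library and 2874 against 6119 CPM in the ND library. The ER folding list had 0 of 28 genes higher and 0 lower in both libraries, with medians of 0.00 and -0.23. With only 2.97% and 6.09% of all genes called, 0 of 28 does not set this list apart. Other secretory lists held called genes: 2 of 21 in glycosylation and 2 of 28 in ER to Golgi transport were lower. In ER-associated degradation 1 of 19 was higher and 1 lower, while translocation had 0 of 24 in either direction.

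**Figure D4:**
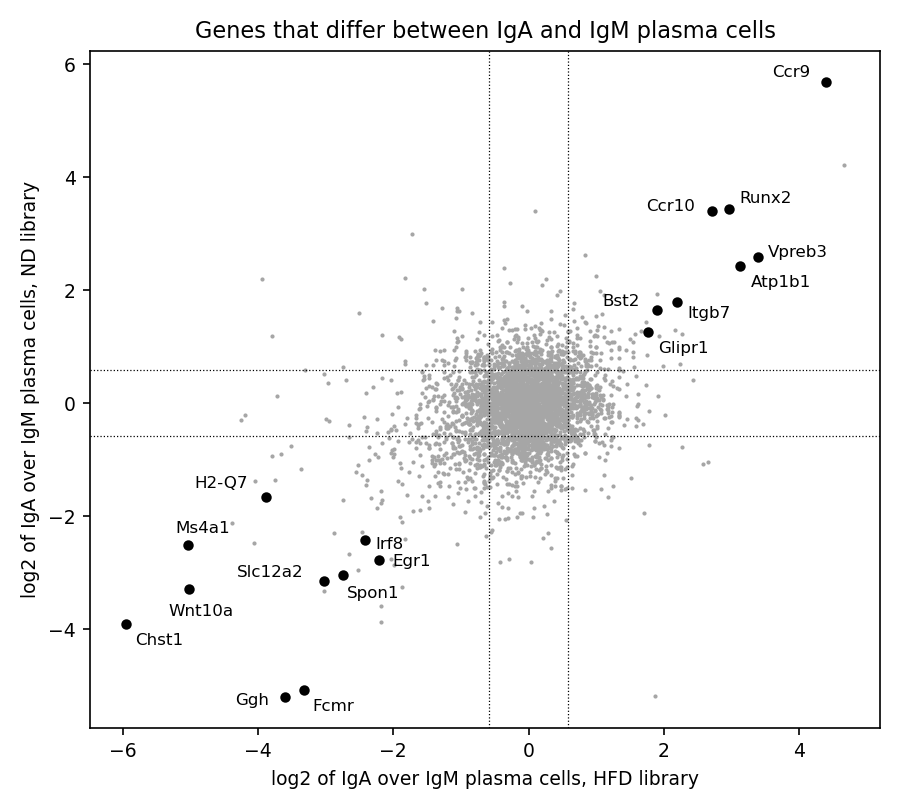
Each grey point is 1 of 4104 genes, with the log2 difference of IgA over IgM plasma cells in the HFD library on the horizontal axis and in the ND library on the vertical axis; dotted lines mark 1.5-fold and black points the named genes. Ccr9, Runx2 and Ccr10 lie at the upper right (higher in IgA in both libraries), and Chst1, Wnt10a, Ggh and Fcmr at the lower left (higher in IgM).

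An Mki67 UMI was present in 34.1% of HFD and 34.9% of ND plasma cells, against 31.1% and 32.4% of all other cells, and a Top2a UMI in 10.3% and 12.4%, against 32.0% and 34.4%. Both Mki67 and Top2a, a proliferation marker and a topoisomerase of mitosis, had a UMI in 8 of 126 HFD plasma cells (6.35%, 2.78 to 12.1) and in 11 of 129 ND plasma cells (8.53%, 4.33 to 14.7), against 25.2% and 26.9% of all other cells of the HFD and ND libraries. All 15 counted G2 and M phase genes, and 9 of 12 S phase genes, were at least 2-fold lower in plasma cells than in other cells in both libraries, beside 6.86% of all genes counted. The same pair of UMIs was found in 3.36% of HFD and 5.19% of ND mature B cells, which hold fewer UMIs (medians of 2263 and 2324.5 outside immunoglobulin genes, against 5358.5 and 5891 in plasma cells). Of these plasma cells, 2 of 8 in the HFD and 6 of 11 in the ND library also carried transcripts of another cell type over the limits, and without all such cells the shares were 5.26% and 4.76%. The cells with both transcripts had a lower median immunoglobulin share, 31.2% in the HFD and 25.6% in the ND library, against 45.6% and 43.6% in the rest. They also had more UMIs outside these genes, with medians of 9968.5 and 10435 against 5275 and 5787.5.

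Antibody tags, which read surface protein, were counted beside the RNA. The tag for CD16 and CD32, Fc receptors of IgG, had a median of 2 molecules on HFD and 4 on ND plasma cells, against 24 and 42 on neutrophils, 6 and 14 on mature B cells and 2 and 4 on T cells. The tag for Ly-6A and Ly-6E had a median of 1 on HFD and 1 on ND plasma cells, and 0 on all other cells of both libraries, while Ly6a RNA stood at 4055 CPM in HFD and 4113 CPM in ND plasma cells against 39.1 and 33.1 CPM in the other cells. The Ly6a RNA thus set plasma cells apart by 6.70 and 6.96 on the log2 scale while the median of the tag was within 1 molecule of the other cells. The tag for CD105 had a median of 0 on the plasma cells and on all other cells of both libraries. The tag for CD117 had a median of 0 on HFD and 1 on ND plasma cells, against 1 on all other cells of both libraries. The CD16 and CD32 medians were lower in the HFD than in the ND library in neutrophils, mature B cells, T cells and plasma cells.

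Between the diets, most genes of the plasma cell lists were within 1.5-fold. Of the 4895 genes counted, 243 (4.96%) were at least 1.5-fold higher and 312 (6.37%) at least 1.5-fold lower in HFD than in ND plasma cells, with a median log2 ratio of 0.02; scaled to all RNA UMIs, the split was 189 higher and 373 lower. None of the 14 plasma markers, the 16 transcription factors, the 28 ER folding genes or the 28 ER to Golgi genes counted was past 1.5-fold, with list medians of 0.10, 0.01, 0.07 and 0.05. In each of the lists of translocation (24 genes counted), glycosylation (22), ER-associated degradation (19) and ER stress sensors (12) 1 gene was higher and none lower, with medians of 0.13, 0.15, 0.14 and 0.12. Derl3 was at 1144 CPM in HFD and 1122 CPM in ND plasma cells, and Sdc1 at 381 and 390 CPM. Bhlha15, the secretory cell factor Mist1, was at 190 CPM in HFD and 119 CPM in ND plasma cells (0.67, 0.30 to 1.06), and at 0.39 on the log2 scale without the cells that carried other cells' transcripts. Most genes past the fold hold few UMIs: with at least 200 UMIs per gene, 18 were higher and 34 lower. Without the cells that carried other cells' transcripts 204 genes were higher and 196 lower, of which 104 and 97 were also among the 243 and 312.

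Most MHC class II genes were higher in HFD plasma cells. Of the 5 counted, 4 were above 0, 3 were past 1.5-fold upwards and none downwards, with a list median of 0.79. Over all genes counted, 4.96% were past 1.5-fold upwards and 6.37% downwards. H2-Aa had 174 UMIs (225 CPM) in HFD and 85 UMIs (102 CPM) in ND plasma cells, a log2 ratio of 1.14 (0.76 to 1.53). H2-Eb1 was at 206 CPM in HFD and 110 CPM in ND cells (0.91), and H2-Ab1 at 626 and 361 CPM (0.79). An H2-Aa UMI was found in 35 HFD and 37 ND cells, with 30 UMIs in the highest HFD and 12 in the highest ND cell. In all other cells of the libraries these genes differed by 0.11, 0.23 and 0.09. Without the plasma cells that carried other cells' transcripts the values were 1.24, 0.92 and 0.88, but with every cell thinned to 1000 UMIs those of H2-Aa and H2-Ab1 were 0.46 and 0.47, under 1.5-fold, and that of H2-Eb1 1.46. Cd74, the invariant chain, held far more UMIs than these genes and differed little. Without the cells that carried other cells' transcripts it had 4435 UMIs in HFD and 3518 in ND plasma cells, a log2 ratio of 0.15. H2-Q7, a class I gene with near-identical neighbours that can share reads, had 289 UMIs in HFD and 150 in ND plasma cells (1.05).

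The inducible heat shock genes showed the highest ratios, and these were not limited to plasma cells. Hspa1a had 66 UMIs in 17 HFD plasma cells and 3 UMIs in 2 ND plasma cells, a log2 ratio of 4.56 (2.95 to 6.88). Hspa1b, its near-identical copy that can share reads with it, had 99 UMIs in 20 HFD cells and 4 UMIs in 3 ND cells (4.73, 3.33 to 6.64). In all other cells the ratios were 3.74 and 3.62, so both genes were higher throughout the HFD library. Of the 23 counted genes of the heat shock and immediate early list 5, among them both Hspa1 copies, were higher and 2 lower. Over all genes counted, 4.96% were higher and 6.37% lower. The others higher were Dusp1, Dnajb1 and Hspb1, and the lower ones Egr1 and Egr2. Hspb1, a small heat shock protein, was at 76.4 CPM in HFD and 38.5 CPM in ND plasma cells, and scarce in other cells, at 0.315 and 0.150 CPM.

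Several metal and immediate early genes were lower in HFD plasma cells, again with the other cells of the library. Mt2, a metallothionein that binds zinc and copper, had 628 UMIs (813 CPM) in HFD and 1547 UMIs (1863 CPM) in ND plasma cells, a log2 ratio of -1.20 (-1.33 to -1.06), and in all other cells the ratio was -0.88. Mt1 was at 632 CPM in HFD and 1066 CPM in ND plasma cells (-0.75), and in other cells the ratio was -0.43. Egr1 was at 475 and 891 CPM (-0.91), with -0.70 in other cells. Nr3c1, the glucocorticoid receptor, was at 85.4 CPM in HFD and 140 CPM in ND plasma cells (-0.71), and Tsc22d3, a gene that glucocorticoids induce, at 119 and 182 CPM (-0.61), while Dusp1 of the same list was higher, at 378 and 199 CPM (0.93). In other cells these 3 genes differed by 0.05, 0.40 and 0.46. The linker histone gene Hist1h1c was at 98.4 and 200 CPM (-1.02), and P2ry10, a lysophospholipid receptor, at 51.8 and 96.3 CPM (-0.90); in other cells these 2 differed by 0.08 and -0.12.

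Genes of lipid use differed by small numbers of UMIs. Of 11 counted, Cpt1a, Cd36 and Acadvl were higher and Acsl1 lower in HFD plasma cells, with a list median of 0.43. Over all genes counted, 4.96% were higher and 6.37% lower. Without the cells that carried other cells' transcripts, Acsl1 had 12 UMIs in HFD and 13 in ND plasma cells (-0.30). Cpt1a, the enzyme that admits fatty acids to the mitochondrion, had 91 UMIs in 50 HFD cells and 47 UMIs in 27 ND cells, a log2 ratio of 1.06 (0.53 to 1.60). In other cells it was also higher, by 0.59. Cd36, a fatty acid receptor, had 40 UMIs in 12 HFD and 18 UMIs in 7 ND plasma cells (1.26, 0.42 to 2.15). Only 20 HFD and 0 ND UMIs of Cd36 were left without the cells that carried other cells' transcripts. Among homing receptors Ccr9 (0.91) and Itgb7 (0.81) were past the fold, at 72.5 and 137 CPM in HFD against 38.5 and 78.3 CPM in ND plasma cells. With IgA and IgM cells weighted alike they were 1.35 and 1.23, and with cells thinned to 1000 UMIs Itgb7 was at 0.12. Wnt10a, which was higher in IgM than in IgA cells, had 84 UMIs in HFD and 41 in ND plasma cells (1.14, 0.58 to 1.71). In other cells it was 0.89 higher but very scarce, at 0.621 CPM in the HFD and 0.335 CPM in the ND library. Lgals3bp, a secreted glycoprotein, was at 129 CPM in HFD and 63.8 CPM in ND plasma cells (1.02), and 0.01 higher in other cells, whereas the interferon-induced Ifi27l2a was 0.98 higher in plasma cells and 1.06 higher in other cells.

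The lowest ratios belonged to other cells' genes. Epx, Ear1 and Ear6, which encode eosinophil granule proteins, had 1, 0 and 0 UMIs in HFD and 153, 158 and 147 UMIs in ND plasma cells, of which 1 ND cell held 152, 158 and 147. The neutrophil granule gene Ngp was at 89.3 CPM in HFD and 2129 CPM in ND plasma cells, with 575 of 1768 ND UMIs in 1 cell. Of the neutrophil list 3 of 10 counted genes were higher and 7 lower, beside 4.96% and 6.37% of all genes counted. The list median was -2.15, and after the cells over the limits were left out 2 genes of that list could be counted.

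**Figure D5:**
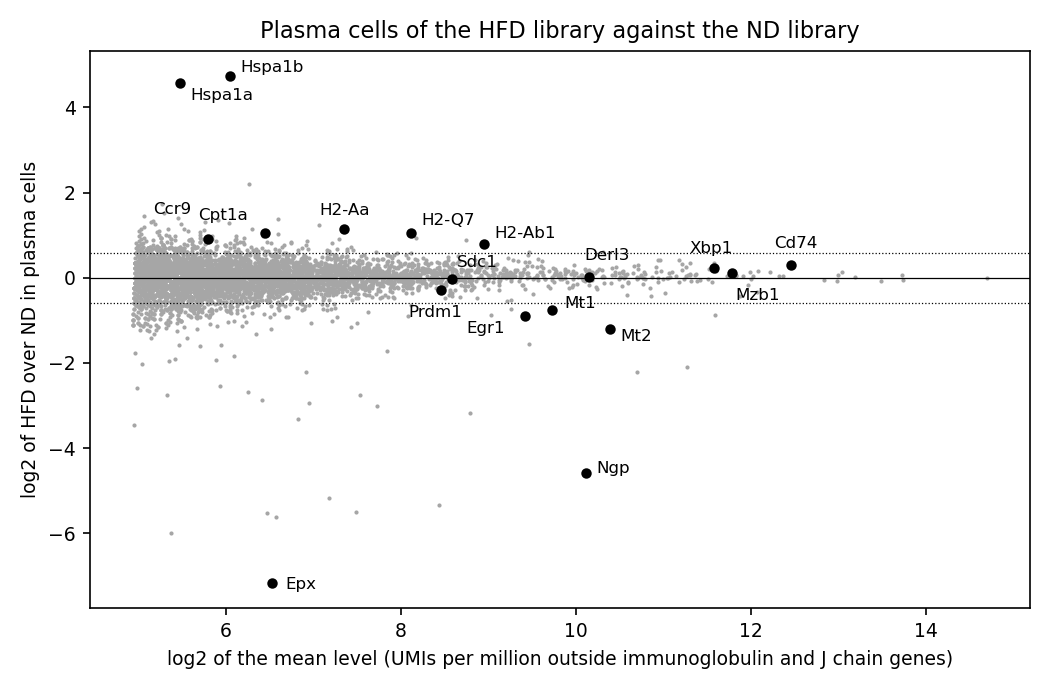
Each grey point is 1 of 4895 genes in plasma cells, with the log2 of its mean level on the horizontal axis and HFD over ND, as log2, on the vertical axis; dotted lines mark 1.5-fold and black points the named genes. Derl3 and Sdc1 lie near 0, as do Mzb1 and Xbp1, which chose the cells, Hspa1a and Hspa1b lie above 4, and Epx and Ngp, genes of other cells, lie below -4.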

How the data were processed

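Transcripts of single bone marrow cells were counted in 1 HFD and 1 ND library. The deposited tables hold molecule counts per cell and gene after error correction, made by the authors; per the file headers, the software was the BD WTA Rhapsody Analysis Pipeline, version 1.9.1, with a custom reference. The genome build behind it is not given in the sources used here. The files hold no coordinates. The 5 antibody tags are counts in the same tables. UMIs were summed over plasma cells in each library, and log2 ratios were scaled to UMIs outside 271 immunoglobulin and Jchain genes, since these fill a large and variable part of each cell. A sum of 0 was set to a floor of 3 UMIs. Intervals of ratios are exact conditional binomial intervals and those of shares Clopper-Pearson intervals, both at 95%. With 1 library per diet nothing was tested, and called means at least 1.5-fold among genes with at least 50 UMIs over both libraries. Doublets were sought with Scrublet in scanpy 1.11.5 (expected share 5%). Calculations used Python 3.11.15, numpy 2.4.6 and scipy 1.17.1, and the ratio and interval steps were tested on simulated data. Named genes are the 10 highest and 10 lowest HFD over ND ratios at 100 or more UMIs, up to 4 genes per list, the 20 highest over other cells and the immunoglobulin genes; for IgA over IgM, the 20 genes in each direction with the largest smaller fold, a rule added after the values were seen, and further list genes were picked for their roles. The members and lists were chosen with earlier results of these data known. Alternative cell selections, scalings, isotype thresholds and gene minimums were run for the cell counts, isotypes, kappa share, immunoglobulin share, CD16 and CD32 tag, cells with Mki67 and Top2a, list medians and gene ratios; the promoter motifs, other tags and variable gene pairs had none. The total RNA UMIs of plasma cells ranged from 4036 to 38837 per HFD cell and from 2479 to 35333 per ND cell.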

Additional observations from a re-analysis of the deposited data

Results flagged for a closer look

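The G2 and M phase genes went opposite ways between the classes in the libraries: their median log2 of IgA over IgM plasma cells was -1.52 in the HFD library and 2.20 in the ND library, over 5 counted genes. The difference between the libraries was not tested, and it rests on few cells, since both Mki67 and Top2a had a UMI in 1 of 35 IgA and 5 of 85 IgM cells of the HFD library and in 4 of 33 IgA and 5 of 88 IgM cells of the ND library. Of these, 0 IgA and 1 IgM cells in the HFD library and 2 IgA and 2 IgM cells in the ND library also carried transcripts of other cell types over the limits.

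Ear2, an eosinophil ribonuclease gene, had a log2 ratio of HFD over ND of -1.85 in plasma cells and 0.88 in all other cells. The difference was not tested, and 1 ND plasma cell held 78 of the 89 UMIs.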

How the results depend on the processing

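Of 193 values of the main results recomputed under the alternatives, 176 stayed within 1.5 times (counts) or within the interval of the value reported. For the immunoglobulin share and the ER folding medians, that interval was the median plus or minus the standard deviation over cells or genes. For the CD16 and CD32 tag it was the range between the quartiles. These limits are wide, so such values could hardly leave them. Leaving out Scrublet doublets removed no plasma cell, so that alternative could not change values taken from plasma cells alone. With stricter marker thresholds (88 HFD and 80 ND cells) the plasma cell shares were 0.562% in HFD and 0.559% in ND, and 73 genes were higher in IgA in both libraries. With 3 or more UMIs of Derl3 and 100 or more of the heavy chain constant genes in place of the Jchain criterion (100 and 104 cells, all of them among the plasma cells above) the shares were 0.639% and 0.727%. Without cells carrying any other cell type's transcripts, an alternative chosen after seeing the data, the ND share was 0.734% and 196 genes were lower in HFD. Thinned to 1000 UMIs, 45 genes were higher and 46 lower in HFD, and cells with Mki67 and Top2a made up 1.59% in HFD and 0.781% in ND; by at least 3 G2 and M phase genes they were 15.9% and 15.5%. With at least 20 UMIs per gene 679 were higher and 828 lower, and with at least 200 the counts were 18 and 34. Scaled to all RNA UMIs 189 were higher and 373 lower, against 243 and 312. Single genes that changed sign were Ear2 (1.39 without cells with neutrophil or T and NK transcripts, 0.10 without the top cell of each library) and Epx (1.69 without the top cells), Rrm1 (0.14) and Ccna2 (1.58) without cells with any other cells' transcripts, and Rrm2 (-1.58) and Cdc20 (-1.04) with IgA and IgM cells weighted alike. The causes of these changes were not tested. No paired analysis was possible because each diet is 1 library. Depth limits ratios of genes with under about 200 UMIs, and a class of antibody with no cell is limited only to under 2.89% in the HFD library (exact 95% limit).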
